A study of Mus musculus with 8 samples.

Results

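Tlr2, Tlr5, Tollip and Casp8 were the 4 genes followed here, of 68 target genes on a custom NanoString nCounter panel that was run on mouse colon. They were chosen by name, as 2 Toll-like receptors for bacterial products and 2 genes that restrain or redirect the signal behind such receptors. C57BL/6 mice of both sexes, specific pathogen-free and 7 to 10 weeks old, received for 1 week either the control diet or the high salt diet, which was the control diet with sodium chloride added. RNA from whole colon was measured in 8 pools, 4 per diet. For each sex, mice 1, 2 and 3 of a diet made a pool of 3, here called the trio, and mice 4 and 5 made a pool of 2, here called the pair. The same mouse number on the 2 diets does not mean the same mouse. A pool gives 1 value for 3 or 2 mice, so the spread between the mice in it is not seen, and the p-values below measure the spread between pools.

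TLR2 at the cell surface recognises bacterial lipoproteins, in partnership with TLR1 or TLR6, and TLR5 recognises flagellin, the protein of bacterial flagella. Both signal through the adaptor MyD88 to NF-kB. Tollip is an adaptor that binds the kinase IRAK1 and damps signalling from Toll-like and interleukin-1 receptors. Caspase-8 is the protease that starts death receptor apoptosis and holds back necroptosis, a form of cell death that the gut epithelium is prone to when caspase-8 is missing.

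The 250 bases that precede the annotated start of each gene are shown so that the windows of the 2 receptors can be set beside those of Tollip and Casp8. They are from RefSeq on GRCm38.p6 and are written 5′ to 3′ on the strand of the gene. Capitals mark matches, on either strand, to the NF-kB consensus, to the GC box GGGCGG or to CCAAT. A search for TATAAA found no match in the 4 windows. The windows are chr3:83841609-83841858 on the minus strand for Tlr2, chr1:182954538-182954787 on the plus strand for Tlr5, chr7:141902462-141902711 on the minus strand for Tollip and chr1:58802252-58802501 on the plus strand for Casp8. For Tlr2, Tlr5 and Casp8 another annotated transcript starts further upstream than the start used, and for Tollip none does.
Tlr2: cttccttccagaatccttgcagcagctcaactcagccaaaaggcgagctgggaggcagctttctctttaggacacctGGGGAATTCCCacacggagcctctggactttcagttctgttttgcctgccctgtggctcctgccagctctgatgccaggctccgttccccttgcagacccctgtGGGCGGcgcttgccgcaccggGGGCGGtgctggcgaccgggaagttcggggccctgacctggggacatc
Tlr5: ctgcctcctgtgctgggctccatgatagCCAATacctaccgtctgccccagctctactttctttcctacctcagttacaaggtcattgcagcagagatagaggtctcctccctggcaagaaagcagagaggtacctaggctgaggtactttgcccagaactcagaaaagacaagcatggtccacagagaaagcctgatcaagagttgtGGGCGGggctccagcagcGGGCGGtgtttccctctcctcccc
Tollip: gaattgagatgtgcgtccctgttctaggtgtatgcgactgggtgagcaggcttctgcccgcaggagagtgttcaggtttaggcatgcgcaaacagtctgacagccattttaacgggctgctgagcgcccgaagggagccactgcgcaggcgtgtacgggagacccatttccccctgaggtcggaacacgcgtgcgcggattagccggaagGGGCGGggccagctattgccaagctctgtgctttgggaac
Casp8: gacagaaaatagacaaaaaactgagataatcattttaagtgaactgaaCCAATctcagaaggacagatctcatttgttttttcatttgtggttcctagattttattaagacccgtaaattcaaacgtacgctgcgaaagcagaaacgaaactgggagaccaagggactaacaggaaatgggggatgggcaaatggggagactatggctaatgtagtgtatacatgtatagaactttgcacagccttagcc

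Counted back from the start at -1, the Tlr2 window held 1 stretch, from -173 to -163, that matches the NF-kB consensus. It was counted as 3 matches, since it matches at -173 and, 1 base on, at -172 on both strands. The motif is found in 3.90% of 32851 mouse promoter windows of the same length. GC boxes began at -69 and -48 in Tlr2, at -42 and -24 in Tlr5 and at -40 in Tollip, and 32.7% of all windows hold 1 or more. Casp8 had no GC box. CCAAT occurred at -222 in Tlr5 and at -202 in Casp8, as in 33.8% of windows, and TATAAA is in 12.4%. The share of G and C was 62.8% in Tlr2, 55.2% in Tlr5 and 60% in Tollip, against 39.6% in Casp8 and a median of 52.4% over all windows. Tollip had 17 CpG dinucleotides, Tlr2 11, Casp8 5 and Tlr5 4, against a median of 6. These are matches of letters, and whether any factor binds there was not measured.

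The deposited values are normalized counts, scaled so that the geometric mean of the reference genes Gapdh, Gusb and Pgk1 was about 773 in every pool. Values above the floor, which stands in for low values in a pool, are whole multiples of a fixed step, from which the underlying counts were worked out, and these summed to between 13574 and 74270 on the control diet and between 26893 and 169300 on the high salt diet. All 4 genes lay above the floor in 8 of 8 pools. The labelled tissue carried its epithelial markers, with Cdh1, Tff3, Muc2 and I-FABP above the floor in every pool, and of the 2 Paneth cell genes Lyz1 was above it in 8 pools and Defcr1 in 1. The 2 male trios stood apart in what follows, the control one with more Tlr2, I-FABP and Muc2 than the other control pools and the high salt one with less of each than the other high salt pools, so results that rest on them are also given without them. The labels were used as given, and whether these 2 pools were exchanged was not tested. In bulk tissue, fewer cells of a type and less RNA per cell cannot be told apart.

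Tlr2 varied most of the 4 genes. Its normalized count on the control diet was 261.7 in the male trio, 32.3 in the male pair, 61.7 in the female trio and 53.7 in the female pair. On the high salt diet it was 101.1, 229.0, 266.9 and 227.7 in the same order. The diets overlapped only through the control male trio, which was second only to a high salt pool, and the high salt male trio was the lowest of its diet. The values rested on 16 to 424 counts, and the highest and lowest pools differed 8.26-fold. On the log2 scale the SD of Tlr2 over the 8 pools ranked 4 among the 47 target genes above the floor in every pool.

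The mean of Tlr2 was 102.3 ± 107 on the control diet and 206.2 ± 72.4 on the high salt diet (SD, n = 4 each). On log2 of the value plus 1, which is the scale of every difference in a gene below, high salt exceeded control by 1.40 (SE 0.61, 95% interval 0.04 to 2.75). This difference did not pass limma with Benjamini-Hochberg adjustment over the 68 genes (adjusted p = 0.628), and an exact permutation test gave p = 0.114, two-sided. Without the control male trio it was 2.01 (limma adjusted p = 0.0238), and with both male trios left out, a choice made after the values were seen, it was 2.32 (limma adjusted p = 0.00679). Without the control male pair it was 1.01. In limma 0% of the 68 genes, and none of the 4, passed the adjusted threshold of 0.05 with all pools, and 4.41% passed an unadjusted 0.05, namely I-FABP, T-bet and Tlr2.

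Tlr5 was measured with 14 to 111 counts, the fewest of the 4 genes. Its normalized count on the control diet was 53.2 in the male trio, 29.2 in the male pair, 54.0 in the female trio and 27.9 in the female pair. On the high salt diet it was 41.3, 59.95, 105.5 and 65.1 in the same order. The high salt female trio was highest, and 3 high salt pools lay above all control pools while the male trio lay among them. The means were 41.1 ± 14.5 and 67.97 ± 27.0 (SD, n = 4 each). The difference between diets was 0.70 (SE 0.40, interval -0.18 to 1.58, limma adjusted p = 0.628), with an exact permutation p of 0.143. It was 0.47 without the high salt female trio, the lowest value with any pool left out, and 1.05 without both male trios (limma adjusted p = 0.257).

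Tollip was measured with 57 to 579 counts and was steadier than either receptor. Its normalized count on the control diet was 260.3 in the male trio, 123.0 in the male pair, 219.7 in the female trio and 233.0 in the female pair. On the high salt diet it was 233.7, 312.7, 363.1 and 313.7. Here too the diets overlapped through the male trios, and the lowest value of all was the control male pair. The mean was 209.0 ± 59.8 on control and 305.8 ± 53.5 on high salt (SD, n = 4 each). The difference of 0.58 (SE 0.34, interval -0.18 to 1.35) had a limma adjusted p of 0.628 and an exact permutation p of 0.0571, where the smallest that 70 assignments allow is 0.0286. Without the control male pair the difference was 0.35, and without both male trios it was 0.83 (limma adjusted p = 0.333).

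Casp8, with 130 to 693 counts, was the only one of the 4 genes with a lower mean on high salt. Its normalized count on the control diet was 428.5 in the male trio, 362.7 in the male pair, 578.2 in the female trio and 339.3 in the female pair. On the high salt diet it was 283.7, 269.0, 403.4 and 392.7. The 2 high salt male pools lay below all control pools, and the 2 high salt female pools lay among them. The means were 427.2 ± 108 and 337.2 ± 70.7 (SD, n = 4 each), a difference of -0.33 (SE 0.32, interval -1.05 to 0.39, limma adjusted p = 0.912) with an exact permutation p of 0.229. It was -0.18 without the control female trio, the highest control pool, and -0.25 without both male trios. The normalized value that 1 count was worth in a pool was 0.409 to 3.85, and it was largest in the female trios, the pools with the fewest counts. The level of Casp8 moved with this value (r = 0.91 over 8 pools, rank 2 of 47 genes, whose median r was 0.40). For Tlr2, Tlr5 and Tollip this r was 0.01, 0.43 and 0.12. The part of depth in the Casp8 result was not tested.

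**Figure D1:**
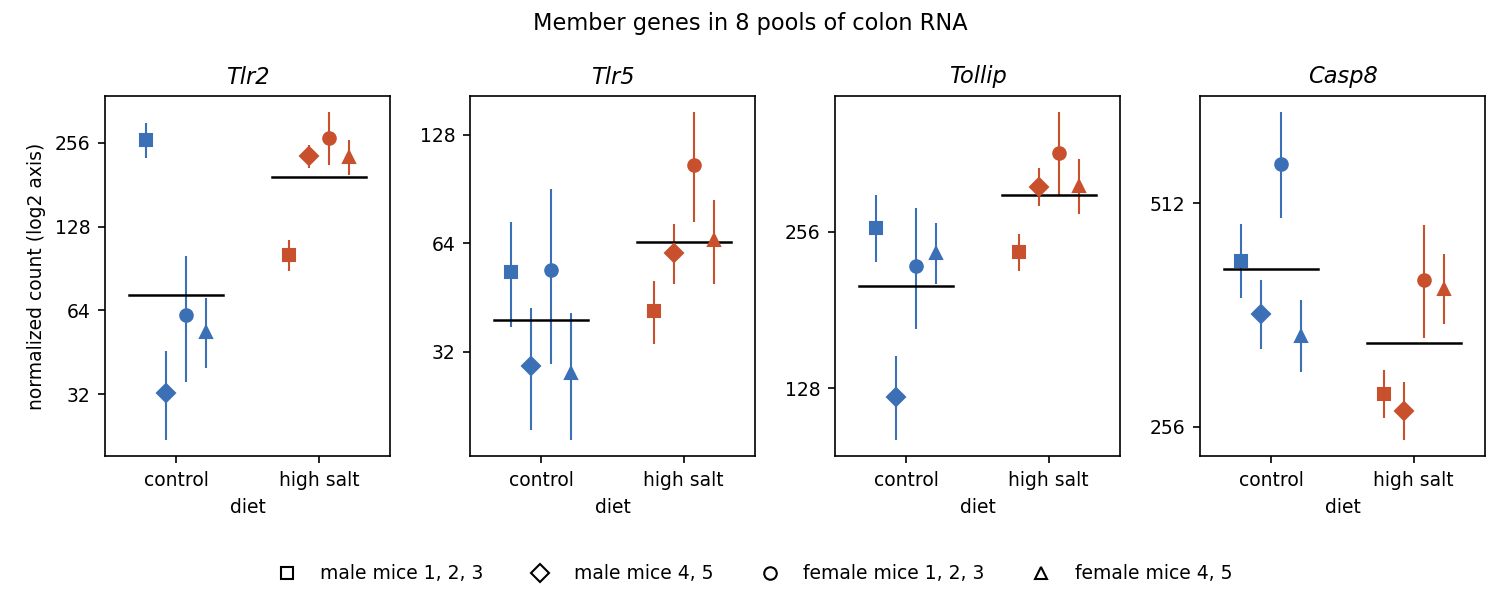
Normalized count of Tlr2, Tlr5, Tollip and Casp8 (log2 axes) in the 4 control (blue) and 4 high salt (red) pools, with symbols for the mice of each pool, vertical lines for the 95% Poisson interval of the count and horizontal lines for the mean on the log2 scale. The control male trio has a Tlr2 value of 261.7, near 3 of the high salt pools, while the other 3 control pools lie between 32.3 and 61.7.

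Among all 68 genes, 1.47% had all 4 pools of one diet on one side of all 4 of the other. That 1 gene was T-bet, which was at the floor in every control pool and in both high salt male pools, so that those 6 pools differ only in their floors. None of Tlr2, Tlr5, Tollip and Casp8 did so.

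The ratio of a receptor to Tollip within a pool does not depend on how the pool was scaled, and it was taken with no pseudocount. It sets different probes against each other, so it is read across pools and not as a ratio of molecules. Tlr2 to Tollip on the control diet was 1.01 in the male trio, 0.263 in the male pair, 0.281 in the female trio and 0.230 in the female pair. On the high salt diet it was 0.433, 0.732, 0.735 and 0.726. The 3 other control pools thus lay between 0.230 and 0.281 and the 3 other high salt pools between 0.726 and 0.735, with both male trios outside these ranges.

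Over all pools the mean log2 ratio of Tlr2 to Tollip was -1.47 ± 0.99 on control and -0.64 ± 0.38 on high salt (SD, n = 4 each). The difference of 0.83, or 1.77-fold, had an exact permutation p of 0.143, and of 0.286 adjusted over the 2 ratios to Tollip. It was 1.32 without the control male trio and 1.51 without both male trios, a choice made after the values were seen. Without both, the exact permutation p was 0.1, the smallest that 3 pools against 3 allow. Any full separation of the pools left gives this p, so it adds nothing to the separation. The counts set the log2 ratio of the control male trio between -0.30 and 0.31 (95% exact binomial interval, which covers counting error only), and those of the other control pools between -2.73 and -1.01. In the high salt female trio, female pair and male pair the intervals were -0.86 to -0.03, -0.73 to -0.19 and -0.63 to -0.27. In the high salt male trio it was -1.43 to -0.99. The closeness of the first 3 ratios, 0.726 to 0.735, is thus finer than their counts resolve.

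Tlr5 to Tollip gave no such separation. It was 0.204, 0.237, 0.246 and 0.120 in the control male trio, male pair, female trio and female pair, and 0.177, 0.192, 0.291 and 0.207 in the high salt pools. The diets overlapped almost fully, with the lowest value in the control female pair. The mean log2 ratios were -2.36 ± 0.48 and -2.23 ± 0.31 (SD, n = 4 each), a difference of 0.13 with an exact permutation p of 0.686, also after adjustment. Leaving out the control female pair turned the sign of the difference to -0.10.

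The ratio of Casp8 to Tollip was looked at after the values were seen and is given with no test. On the control diet it was 1.65, 2.95, 2.63 and 1.46 in the order of pools above, and on the high salt diet 1.21, 0.860, 1.11 and 1.25. The lowest control pool thus lay above the highest high salt pool, although each gene alone overlapped between diets. The log2 means were 1.05 ± 0.50 and 0.13 ± 0.25 (SD, n = 4 each), and the difference of -0.92 stayed between -1.09 and -0.75 when each pool was left out in turn. Of the 6 ratios that 4 genes allow, 2 were apart between diets, against 2.41% of 1081 ratios of genes above the floor in all pools. The 6 ratios share their genes and are not independent of each other.

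The other ratio that was apart was Tlr5 to Casp8. It was 0.124, 0.0805, 0.0933 and 0.0823 on control and 0.146, 0.223, 0.262 and 0.166 on high salt, a log2 difference of 1.05 with an exact permutation p of 0.0286, the smallest possible, and of 0.114 adjusted over the 4 receptor ratios. Any ratio that is apart between the diets gives this smallest p, so it adds nothing to the separation. The main ratio tests planned were those of the receptors to Tollip. Tlr2 to Casp8 differed by 1.75 with an exact permutation p of 0.0857. It overlapped through the control male trio, which had 0.611 while the rest of its diet had 0.0891 to 0.158 and high salt had 0.356 to 0.851. With the value of 1 count, the log2 ratio of Tlr5 to Tollip had an r of 0.56 and that of Casp8 to Tollip 0.43. For Tlr2 to Casp8, Tlr5 to Casp8 and Tlr2 to Tollip this r was -0.24, -0.07 and -0.05. These are descriptions over 8 pools.

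**Figure D2:**
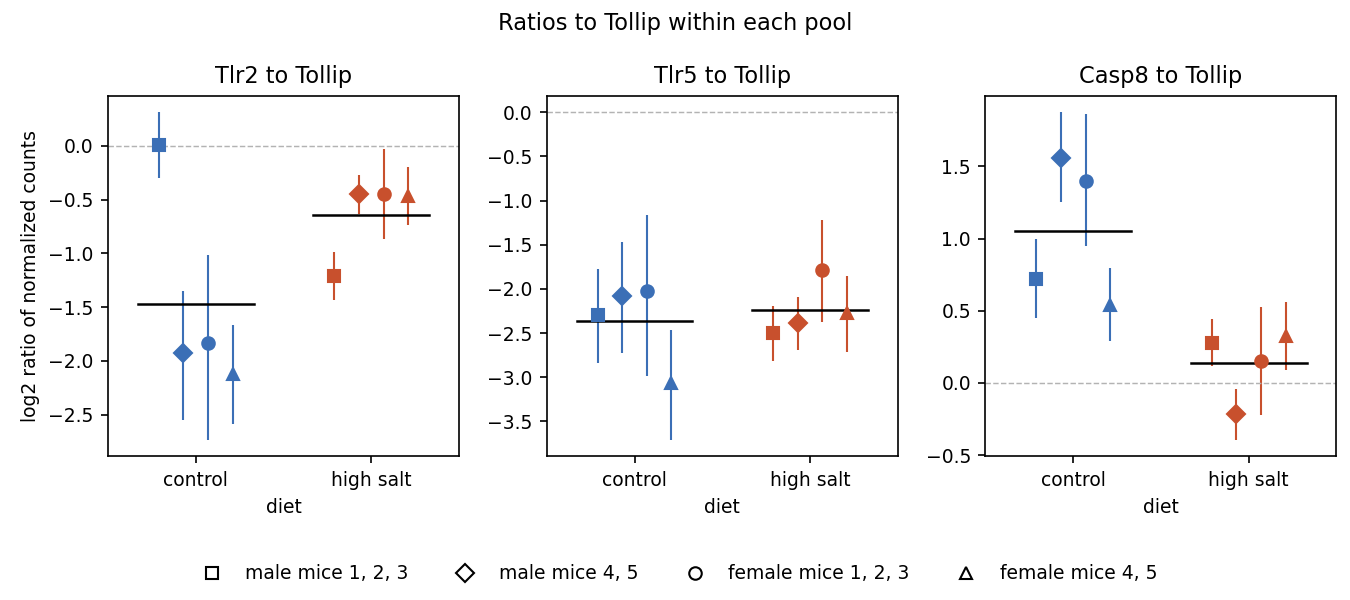
Log2 ratio of Tlr2, Tlr5 and Casp8 to Tollip in each pool (control blue, high salt red), with 95% exact binomial intervals of the counts as vertical lines and the mean of each diet as a horizontal line. For Casp8 to Tollip all 4 high salt pools lie at or below 0.32 and all 4 control pools at or above 0.54.

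Covariation was computed on the log2 values over the 8 pools, for 6 pairs of genes, with permutation tests over all pairings and adjustment over the 6 pairs. Each test sets r against 0 and permutes pools across both diets, so a difference between diets that 2 genes share enters its p. No p was computed for r with diet means taken off. The median r with the 46 other genes above the floor in every pool was 0.34 for Tlr2 and 0.53 for Tlr5. It was 0.47 for Tollip and 0.30 for Casp8. An r over 0.8 was reached with 8, 7, 2 and 4 genes in the same order. Tlr2 and Tollip rose and fell together, with a Pearson r of 0.87 (permutation p = 0.00134, adjusted 0.00804) and a Spearman rho of 0.88 (permutation p = 0.00724, adjusted 0.0435). Tlr2 changed by 2.20 for each change of 1 in Tollip on the log2 scale. Without the 2 pools farthest from the Tlr2 median, both of the control diet, r was 0.83 (permutation p = 0.0306). With the mean of each diet taken off it was 0.79, and without both male trios 0.92. Without the control male pair r was 0.83 and did not pass the adjusted threshold (permutation p adjusted over 6 pairs 0.0810). Tlr2 itself fell into a low set of 3 control pools, a high set of 4 pools and 1 pool between them, and neither set is large enough for an r of its own.

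Tlr5 and Tollip had an r of 0.80 (permutation p = 0.0174, adjusted 0.0349) and a rho of 0.81 (permutation p = 0.0218, adjusted 0.0653). Without the 2 pools farthest from the Tlr5 median r was 0.94 (permutation p = 0.00972), and with diet means taken off it was 0.66. The slope of Tlr5 on Tollip was 1.03. Its adjusted call was lost in 6 of the 8 cases of 1 pool left out, all but those of the control female trio and the control female pair. The receptors themselves, Tlr2 and Tlr5, had an r of 0.81 (permutation p = 0.0134, adjusted 0.0349) and a rho of 0.76 (permutation p = 0.0368, adjusted 0.0735). Without the control male and female pairs, the 2 pools farthest from the Tlr2 median, r was 0.55 (permutation p = 0.281). With diet means taken off r was 0.70. Its adjusted call was lost in 5 of the 8 cases of 1 pool left out, all but those of the control and high salt male trios and the control female trio.

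Casp8 moved with none of the other 3 by this test. Its r was -0.10 with Tlr2 (rho 0.19, permutation p = 0.816 and 0.665), 0.24 with Tlr5 (rho 0.29, permutation p = 0.577 and 0.501) and -0.07 with Tollip (rho -0.02, permutation p = 0.871 and 0.977). The adjusted p of r was 0.871, 0.866 and 0.871 in the same order, and that of rho was 0.798, 0.751 and 0.977. Without the 2 farthest pools r was -0.33, 0.15 and -0.38. With diet means taken off the 3 values were 0.33, 0.80 and 0.41, all positive.

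Genes of a pool share its scaling, so r was also taken after each pool was centred on its median target gene. Tlr2 and Tollip then had 0.70, Tlr2 and Tlr5 0.78 and Tlr5 and Tollip 0.67, and none of these passed the adjusted threshold (permutation p adjusted over 6 pairs 0.119, 0.119 and 0.131). The pool median had itself an r of 0.44 with Tlr2, 0.73 with Tlr5, 0.58 with Tollip and 0.73 with Casp8.

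**Figure D3:**
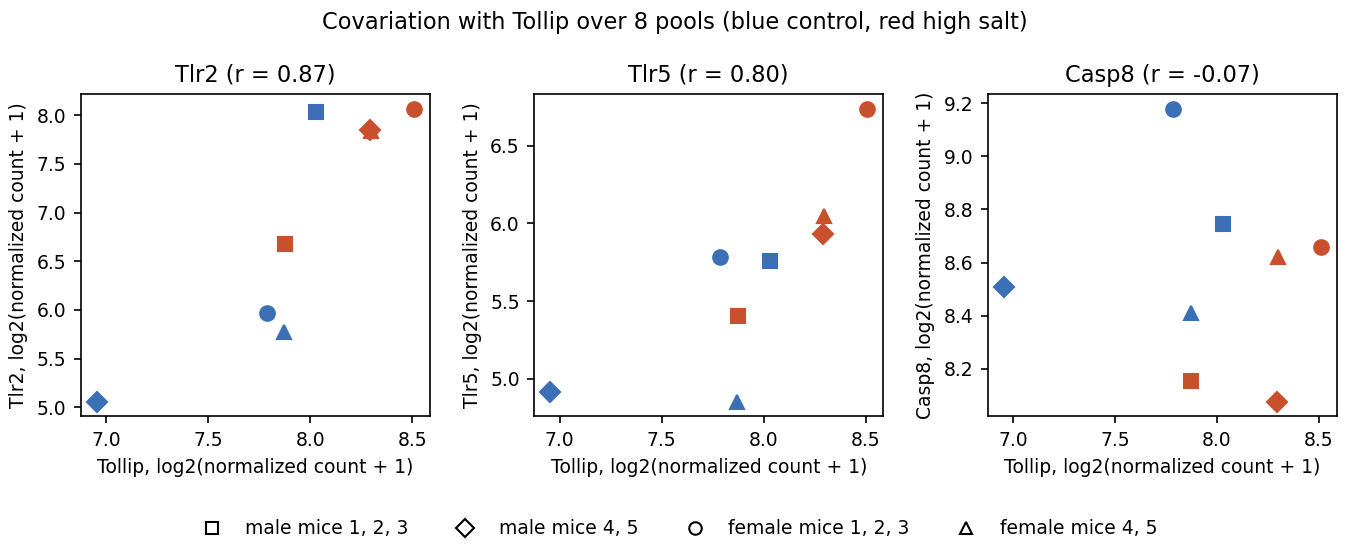
Tlr2, Tlr5 and Casp8 against Tollip, each as log2 of the normalized count plus 1, with 1 point per pool (control blue, high salt red, symbols for the mice of the pool). Tlr2 and Tlr5 rise with Tollip (r = 0.87 and 0.80), and Casp8 does not (r = -0.07).

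By the same r, with no p, 46 other genes above the floor in all pools were ranked for likeness to each of the 4. The genes most like Tlr2 were I-FABP, the fatty acid binding protein of enterocytes (r = 0.97), Reg3g, a secreted lectin that kills Gram-positive bacteria (0.93), and trpv1, an ion channel of sensory nerves (0.91). The male trios stood apart in I-FABP as in Tlr2, with 2873 in the control male trio, 315.7 to 574.3 in the other control pools, 1175 in the high salt male trio and 2835 to 4297 in the other high salt pools. After centring on the pool median the r of I-FABP with Tlr2 was 0.96, and without both male trios it was 0.97. At the other end stood Hif1a, the oxygen-regulated subunit of hypoxia-inducible factor, with an r of -0.89.

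Tollip had Tlr2 (0.87), I-FABP (0.80) and Tlr5 (0.80) as its nearest genes, and after centring these were 0.70, 0.58 and 0.67. Thus 2 of its 3 were the receptors, and the third, I-FABP, was itself among the nearest genes of both receptors. Tlr5 was most like GDNF, a growth factor for enteric neurons (0.96), then I-FABP (0.84) and NOS (0.84), and for GDNF and NOS r fell to 0.59 and 0.54 after centring. Casp8 was most like CCR2, a chemokine receptor of monocytes (0.89), CXCR3, a chemokine receptor of T cells (0.87), and CHAT, the enzyme that makes acetylcholine (0.86). After centring these 3 were 0.09, 0.34 and 0.09.

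Markers of 1 cell type differed among themselves in how they moved with Tlr2. Of the 4 epithelial markers, I-FABP and Muc2 had an r with Tlr2 of 0.97 and 0.83, Tff3 had -0.01 and Cdh1 -0.55. The summed level of the list, most of it Tff3 and Muc2, was 27804 to 87915 on control and 43305 to 71538 on high salt. Of the 4 myeloid markers CD11b had an r of 0.86 with Tlr2, Cd86 0.31, CCR2 0.01 and CD11C -0.22, and their sum was 52.1 to 200.4 on control and 52.0 to 113.3 on high salt. CD11b itself was 8.34 to 20.1 on control and 12.3 to 16.7 on high salt. CD11C and Cd86 were at the floor in 1 pool each. Of the 4 markers of enteric neurons and glia, GFAP had an r of 0.57 with Tlr2, S100BETA 0.48, SOX10 0.33 and PGP9.5 -0.11. With Tlr5 the same markers had 0.80, 0.79, 0.72 and -0.58. PGP9.5 was above the floor in only 4 pools and S100BETA in 7. The part of any of these cell types in the Tlr2 and Tlr5 results was not tested.

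The wider list of bacterial sensing and signalling on the panel is given for 9 genes, the 4 above and 5 more. On high salt 8 of the 9 were higher and 1 was lower, and the median difference was 0.27, while of all 68 genes 44 were higher and 24 lower with a median of 0.18. None of the 9 passed the adjusted threshold in limma (adjusted p 0.628 to 0.942), and 1, Tlr2, had an unadjusted p under 0.05. Tlr4, the receptor for lipopolysaccharide, was among the steadiest genes, ranking 46 of 47 by SD, at 69.6 ± 10.7 on control and 84.2 ± 13.5 on high salt (SD, n = 4 each), a difference of 0.27 (SE 0.30). Nod2, an intracellular sensor of peptidoglycan, rested on 3 to 36 counts and differed by 0.43 (SE 0.44).

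For Myd88 and Nfkb1, shared steps downstream of the receptors, and for HMGB1 the difference between diets was smaller than its SE, as it was for Tlr4 and Nod2. Myd88 differed by 0.17 (SE 0.33), from 54.5 ± 16.1 on control to 60.6 ± 11.7 on high salt (SD, n = 4 each). Nfkb1, a subunit of NF-kB, differed by 0.03 (SE 0.31), a value whose sign turned when pools were centred on the median. HMGB1, a nuclear protein that signals damage once outside the cell, differed by 0.18 (SE 0.31) and turned to -0.01 without the male trios.

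**Figure D4:**
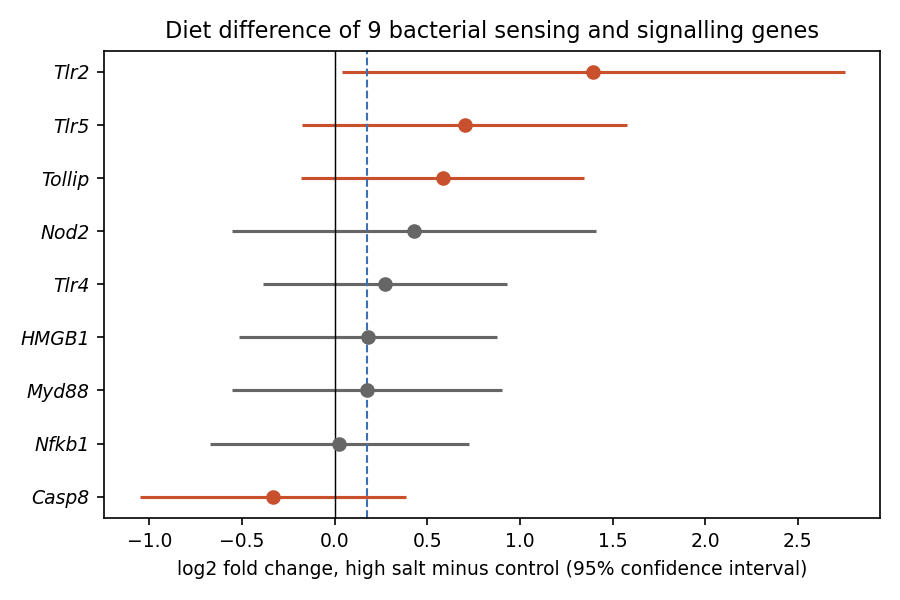
Log2 difference between high salt and control for 9 bacterial sensing and signalling genes (4 pools per diet), with 95% confidence intervals from limma, Tlr2, Tlr5, Tollip and Casp8 in red and the median of all 68 genes as a dashed line. The interval of Tlr2 starts at 0.04 and those of the other 8 include 0.

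Between females and males, 4 pools each, no difference in the 4 genes passed limma with diet as a further term. Female minus male was 0.01 for Tlr2 (adjusted p = 0.991), 0.35 for Tlr5 (adjusted p = 0.656), 0.33 for Tollip (adjusted p = 0.605) and 0.35 for Casp8 (adjusted p = 0.523), and all 4 were below 0 when pools were centred on their median. Of the 68 genes 0% passed the adjusted threshold and 13.2% an unadjusted p under 0.05, none of them among the 4. The difference between diets was 2.08 in females and 0.71 in males for Tlr2, 1.07 and 0.33 for Tlr5, 0.57 and 0.59 for Tollip and -0.15 and -0.51 for Casp8, from 2 pools per diet and sex. The interaction term in limma was 1.37 (SE 1.25) for Tlr2, 0.74 (SE 0.77) for Tlr5, -0.02 (SE 0.69) for Tollip and 0.36 (SE 0.62) for Casp8, with adjusted p from 0.880 to 0.996. For this term 0% of the genes passed the adjusted threshold and 8.82% an unadjusted one, again none of the 4. For Tlr2 the smaller male difference came with the reversed order of the male trios, since in the male pair high salt exceeded control.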

How the data were processed

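Deposited values are a signal, namely counts of 71 genes that the authors normalized in nSolver 4.0, with 12 control probes. Its settings for background and normalization were not given in the sources used here. Low values equal the geometric mean of 6 negative controls, a floor set for each pool. All 487 values above it are whole multiples of 1 step per pool within 0.006, which gave the counts. Poisson and binomial intervals on them cover counting error only. The 13574 to 169300 counts per pool make values from the shallow pools the least precise.

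Diets, sexes and their interaction were compared with limma 3.58.1 in R 4.3.3 on log2 of the value plus 1, over 68 genes at an adjusted p of 0.05, with exact permutation tests for single values. The fit was first tested on simulated data. Python 3.11.15, pandas 2.3.3 and scipy 1.17.1 were used. Pools were grouped by the sample labels. The genes named are the 4 chosen, 5 more of the bacterial sensing list (1 further gene of it is not reported here), the 3 genes most like each of the 4, the reference genes and the cell type markers. The members and lists were chosen with earlier results of these data known. Alternatives covered scaling, pseudocount, filters, sex, replicate block, weights, the methods' unpaired test, voom and leaving out pools. Other panel genes, and the study's myeloperoxidase, microbiota and defensin data, were not used here. Promoter windows were matched by symbol for 4 of 4 genes.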

Additional observations from a re-analysis of the deposited data

Results flagged for a closer look

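Of 22 sets of 4 pools tested for a pool far from the other 3 by Dixon's criterion, 3 held one, where chance gives about 1 in 20, or 1.1 here. All 3 concern Tlr2 and the male trios. The sets share pools and genes and are not independent, so whether 3 exceeds 1.1 by more than chance was not tested. The log2 value of Tlr2 in the high salt male trio was 6.67, while the rest of its diet lay at 7.84 to 8.07. The log2 ratio of Tlr2 to Tollip in the control male trio was 0.0080, while the rest of its diet lay at -2.12 to -1.83. In the high salt male trio that ratio was -1.21, while the rest of its diet lay at -0.46 to -0.44. Those ratios lay closer together than their counts resolve, with an interval of -0.86 to -0.03 in the high salt female trio. The control male trio thus sat on the high side of its diet and the high salt male trio on the low side. The cause, an exchange of the 2 pools included, was not tested.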

How the results depend on the processing

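Over 20 alternatives the difference between diets kept its sign for Tlr2 (1.01 to 2.32), Tlr5 (0.47 to 1.05), Tollip (0.35 to 0.83) and Casp8 (-0.43 to -0.18). Of the 4 genes only Tlr2 passed the adjusted threshold under any, at 2.01 without the control male trio (1.01 to 2.01 over pools left out in turn) and at 2.32 without both male trios, which was chosen after seeing the data. Genes past the adjusted threshold were 0 to 5 with each pool left out and 6 with both left out. The 6 were I-FABP, Muc2, Reg3g, Tlr2 and trpv1, which were higher, and Hif1a, which was lower. At an unadjusted p under 0.05 the count of 3 genes became 1 with a minimum mean of 20, with the replicate block, by the methods' t-test and by voom, 5 with weights by mice, 2 to 8 with each pool left out and 12 with both left out.

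Nfkb1 turned to -0.0092 when centred, -0.018 with weights and -0.030 with both left out (-0.062 to 0.22 over pools left out), and HMGB1 to -0.015 with both left out. Centring turned the sex differences of Tlr2, Tlr5, Tollip and Casp8 to -0.67, -0.33, -0.36 and -0.34. The diet difference in Tlr5 to Tollip was -0.10 to 0.24 over pools left out and 1.05 with Casp8 as the denominator. Centring moved the r of Tlr2 with Tlr5 to 0.78, of Tlr2 with Tollip to 0.70, of Tlr5 with Tollip to 0.67, of Tlr5 with Casp8 to -0.19 and of Tollip with Casp8 to 0.014. With both left out Tlr2 with Tlr5 had 0.87 and Tlr5 with Tollip 0.80, no longer past the adjusted threshold with fewer pools. Over pools left out, r was 0.74 to 0.88 for Tlr2 with Tlr5, 0.83 to 0.92 for Tlr2 with Tollip, 0.74 to 0.90 for Tlr5 with Tollip (past the adjusted threshold in 3, 7 and 2 of 8), -0.21 to 0.21 for Tlr2 with Casp8 and -0.20 to 0.11 for Tollip with Casp8. The causes of these changes were not tested.

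Pools with the same sex and mouse numbers hold different mice, so the numbers do not pair them. Their deviations from the diet means had an r over 68 genes of 0.16 in the female trios and -0.31 in the female pairs. This r was -0.52 in the male trios and 0.11 in the male pairs. The deviations also hold differences between the sexes, so these r cannot show or exclude pairing. With the replicate block the adjusted p was 0.765 for Tlr2, Tlr5 and Tollip and 0.843 for Casp8, so no adjusted call changed, while the unadjusted limma p of Tlr2 went from 0.0446 to 0.103. With 4 pools per diet an exact test cannot go below 0.0286, and Tlr5 on 14 to 37 counts in control pools is limited by counting.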
